A study of Mus musculus with 8 samples.

Results

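The 10 genes described here are Jun, Sox2, Gdnf, Shh, Olig1, Ucn2, Bdnf, Artn, Lif and Cd24a, a set of genes associated with injured or developing Schwann cells, the glia that wrap and myelinate the axons of peripheral nerves. They were taken by symbol from a table of 23356 mouse genes, and all 10 symbols were found. Sciatic nerves were profiled by poly A RNA sequencing at an age of 30 days in F1 mice of C57BL/6 and FVB/N, with 2 libraries per genotype. HA-NRG1 type III/+:Q215X/+ mice carried the Q215X allele together with a transgene that encodes type III neuregulin 1, HA-NRG1 type III/+ mice carried the transgene alone, Q215X/+ mice carried the mutation alone, and wild-type (WT) mice carried neither. The driver of the transgene, promoter or cell type, was not given in the sources used here. Both alleles were heterozygous wherever present, and the study's title names the mutation as a model of congenital hypomyelination neuropathy. The comparisons ask how these genes stood in the mutant nerve and what the transgene added on each background.

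When a peripheral axon is cut, the Schwann cells beyond the injury leave the myelinating state and become repair cells, which clear myelin and feed regrowing axons. The transcription factor Jun drives much of that switch in rodents, and several of the ligands examined here (Gdnf, Artn, Shh, Bdnf and Lif) are known for their induction in repair cells. Sox2 and Cd24a also mark immature Schwann cells in the developing nerve, where Sox2 restrains myelination. Neuregulin 1 type III is an axonal signal to ERBB receptors of Schwann cells, and it sets the thickness of myelin in the mouse.

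Values are FPKM, which scale a gene's fragments to its length and to the library's total, and each library is identified by its genotype and by the ending 0 or 1 of its column. Total FPKM was between 443733 and 530901 per library. Separate animals are not stated for the libraries of a genotype. Those of HA-NRG1 type III/+ differed in sex, as given below, so they came from different animals. For the other genotypes this is unknown, so p-values measure a spread that may be technical in them. Schwann cell identity genes summed to 19791 to 38855 FPKM, and lymphocyte markers to 0.964 to 2.48 FPKM. Xist and the Y-linked Ddx3y read both HA-NRG1 type III/+:Q215X/+ libraries as female, the HA-NRG1 type III/+ libraries as male (ending 0) and female (ending 1), both Q215X/+ libraries as male and both WT libraries as female, so sex and the mutation cannot be told apart in Q215X/+ against WT, nor sex and the transgene in HA-NRG1 type III/+:Q215X/+ against Q215X/+. Skeletal muscle markers summed to 875 FPKM in the Q215X/+ library of ending 1, against 2.92 to 68.7 FPKM in the other libraries. Nrg1 stood at 0.498 and 0.358 FPKM in HA-NRG1 type III/+:Q215X/+ nerves, 0.393 and 0.312 FPKM in HA-NRG1 type III/+ nerves, 0.326 and 0.190 FPKM in Q215X/+ nerves and 0.204 and 0.164 FPKM in WT nerves (ending 0, then ending 1). The counting of transgene reads under Nrg1 was not given in the sources used here. In whole nerve, fewer cells of a type and less RNA per cell cannot be told apart.

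Promoter windows, from 250 bases before to 50 bases after a transcription start, were available from RefSeq (build GRCm38.p6) for 6 of the 10 genes, in 13 windows. Bdnf had 7 of these windows and Gdnf 2, so counts of windows are not counts of genes. Jun acts in the AP-1 complex, whose site is TGANTCA, and this motif was found on either strand in 2 of the 13 windows, against 7.81% of 32851 mouse promoters. The 2 windows belonged to Bdnf and to Lif, and that of Lif is shown because it places an AP-1 motif 228 bases before the start of a repair cell ligand. The first of the 2 Gdnf windows is shown because it was the only one of the 13 with TATAAA, a motif held by 13.6% of promoters. The cyclic AMP response element TGACGTCA and the GLI motif GACCACCCA were in none of the 13 windows, and they were in 1.79% and 0.253% of promoters. The GC box GGGCGG was found in 5 windows, among them those of Jun and Sox2, against 35.7% of promoters, and the GAS motif TTCNNNGAA in 1 window of Bdnf, against 8.3%. Both strands were searched, and a match is a description of letters only. Capitals mark the AP-1 motif in the window of Lif (chr11:4257318-4257617, plus strand) and the TATA motif in that of Gdnf (chr15:7809798-7810097, plus strand), each read from its 5′ end.
Lif: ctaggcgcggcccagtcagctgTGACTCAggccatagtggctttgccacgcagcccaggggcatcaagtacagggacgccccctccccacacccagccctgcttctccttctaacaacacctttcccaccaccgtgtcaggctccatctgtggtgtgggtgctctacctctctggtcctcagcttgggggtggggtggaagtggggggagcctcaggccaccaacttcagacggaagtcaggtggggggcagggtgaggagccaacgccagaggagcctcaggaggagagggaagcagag
Gdnf: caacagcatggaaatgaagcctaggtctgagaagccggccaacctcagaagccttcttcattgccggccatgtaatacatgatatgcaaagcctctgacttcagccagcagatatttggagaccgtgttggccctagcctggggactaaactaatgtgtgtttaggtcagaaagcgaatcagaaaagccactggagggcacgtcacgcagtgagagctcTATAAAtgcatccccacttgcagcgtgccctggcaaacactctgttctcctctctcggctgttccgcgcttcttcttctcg

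Among the 10 genes, the clearest difference lay in Ucn2, which encodes urocortin 2, a peptide of the corticotropin-releasing factor family. It was near 0 in nerves without the transgene and between 1.06 and 3.18 FPKM in the 4 libraries with it. Cd24a, which encodes a small glycosylated surface protein, stood highest in the libraries with the Q215X allele. Shh and Gdnf, at low levels, were higher in every library with the transgene than in any library without it. Jun and Sox2 differed by at most 1.24 times between the means of compared genotypes.

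**Figure D1:**
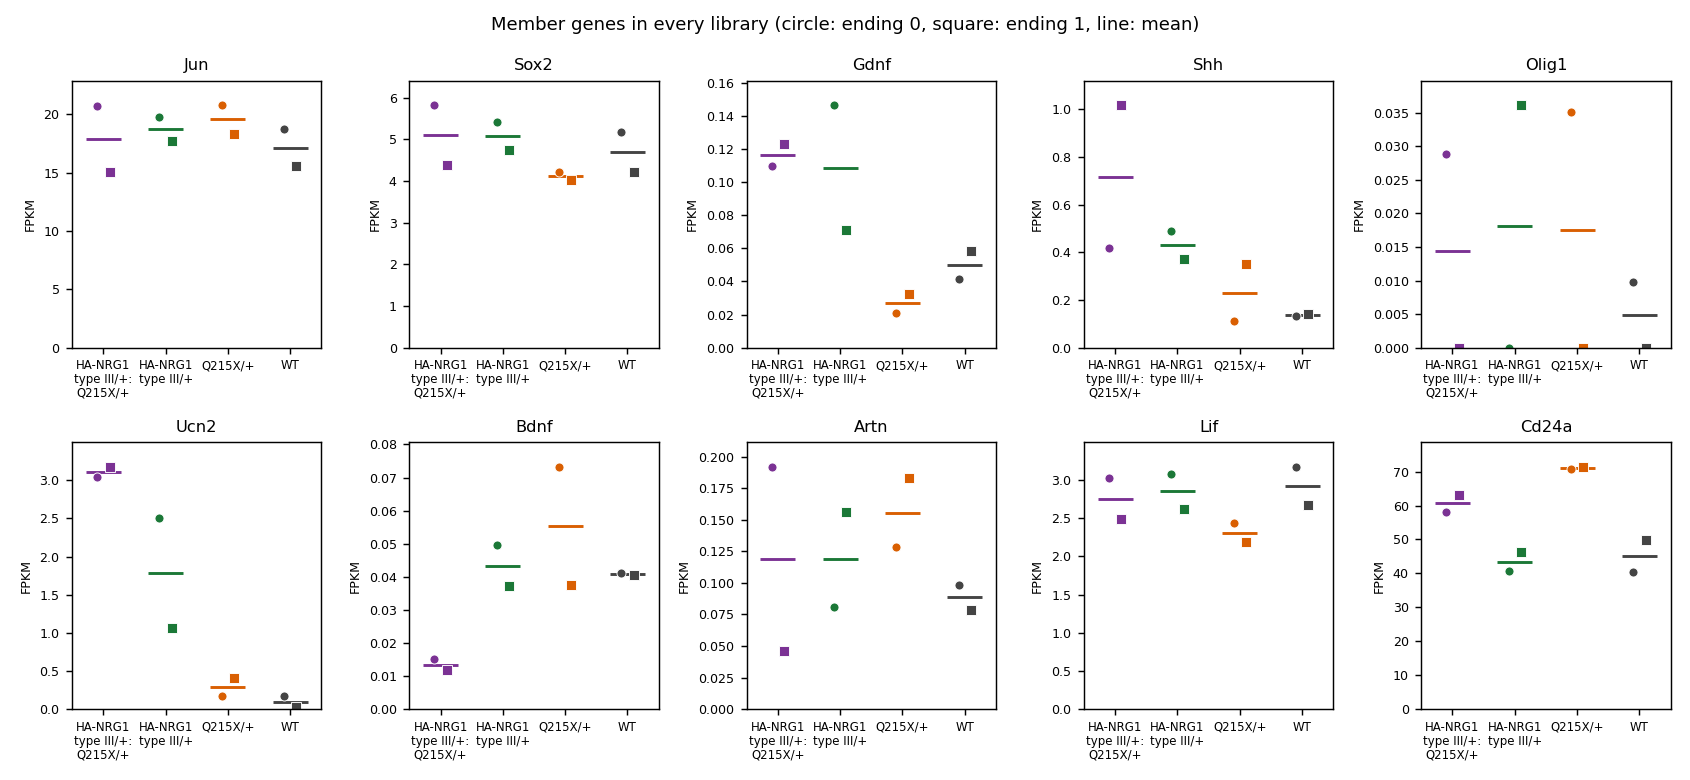
FPKM of each of the 10 genes (vertical axes from 0) in the 8 libraries, grouped by genotype, with circles for ending 0, squares for ending 1 and a line at the mean of 2 libraries. Ucn2 was between 1.06 and 3.18 FPKM with the transgene and at most 0.414 FPKM without it, and Cd24a was at least 58.1 FPKM with the mutation and at most 49.8 FPKM without it.

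The levels of the genes in WT nerves spanned several orders of magnitude. Cd24a averaged 45.1 ± 6.64 FPKM (SD, n = 2), a level exceeded by 7.43% of the genes in the table, and Jun averaged 17.2 ± 2.25 FPKM, exceeded by 18.5%. Sox2 followed at 4.70 ± 0.668 FPKM and Lif at 2.93 ± 0.350 FPKM. Each of these 4 genes was above the next one in both WT libraries. The other 6 averaged below 0.2 FPKM. Shh (0.138 ± 0.00526 FPKM) was followed by Ucn2 (0.0956 ± 0.1001 FPKM) and Artn (0.0886 ± 0.0138 FPKM), and these neighbours did not differ beyond the spread of Ucn2. Gdnf (0.0499 ± 0.0121 FPKM) and Bdnf (0.0409 ± 0.000327 FPKM) overlapped within the spread of Gdnf, and Olig1 stood last at 0.00493 ± 0.00697 FPKM. Cd24a alone made up 56.3% to 73.7% of the summed FPKM of the 10 genes in each library.

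Differences were tested with limma on log2(FPKM + 1) across 12530 genes whose mean reached 1 FPKM, and a gene was called when its Benjamini-Hochberg adjusted p was under 0.05. Jun, Sox2, Ucn2, Lif and Cd24a passed that filter, Ucn2 through the groups in which it was high. The other 5 genes were taken from a fit without the filter, over 18870 genes. On this scale the log2 difference of a low gene is smaller than its change in FPKM, so ratios of mean FPKM are given beside them. Libraries with the same ending deviated together, so values from a fit with the ending as a replicate block are given where they change a call.

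Jun and Sox2, both transcription factors, were next in level after Cd24a. Jun, the AP-1 subunit that drives the repair state, stood at 20.7 and 15.0 FPKM in HA-NRG1 type III/+:Q215X/+ nerves, 19.8 and 17.7 FPKM in HA-NRG1 type III/+ nerves, 20.8 and 18.3 FPKM in Q215X/+ nerves, and 18.7 and 15.6 FPKM in WT nerves. In every genotype the library of ending 0 was the higher one, and all 4 genotypes overlapped with one another. The log2 difference of Jun was −0.14 (SE 0.17) in HA-NRG1 type III/+:Q215X/+ against Q215X/+, 0.13 (SE 0.17) in HA-NRG1 type III/+ against WT and 0.18 (SE 0.17) in Q215X/+ against WT, each with an adjusted p of 1 in limma. The spread of Jun between the 2 HA-NRG1 type III/+:Q215X/+ libraries was thus wider than any difference between genotype means. Over both backgrounds, Jun averaged 18.3 ± 2.52 FPKM in the 4 libraries with the transgene and 18.4 ± 2.15 FPKM in the 4 libraries without it (SD, n = 4 each).

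Sox2, a factor of immature Schwann cells that restrains myelination, had 5.82 and 4.39 FPKM in HA-NRG1 type III/+:Q215X/+ nerves, 5.41 and 4.75 FPKM in HA-NRG1 type III/+ nerves, 4.21 and 4.02 FPKM in Q215X/+ nerves, and 5.17 and 4.22 FPKM in WT nerves. Both Q215X/+ libraries lay below all the others, the nearest being the WT library of ending 1. The log2 difference was 0.24 (SE 0.14) in HA-NRG1 type III/+:Q215X/+ against Q215X/+, with an adjusted p of 0.980 in limma, and −0.15 (SE 0.14) in Q215X/+ against WT. Sox2 lies within the longer noncoding gene Sox2ot on the same strand (10.4 to 16.9 FPKM), with the division of reads between overlapping genes not given in the sources used here. Olig1, a factor of the oligodendrocyte lineage in the central nervous system, was listed at 0 in 4 of the 8 libraries and reached at most 0.0361 FPKM, so no fold is given for it. Its relative Olig2 was listed at 0 in all 8.

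Among the ligands, Ucn2 had 3.04 and 3.18 FPKM in HA-NRG1 type III/+:Q215X/+ nerves, 2.51 and 1.06 FPKM in HA-NRG1 type III/+ nerves, 0.167 and 0.414 FPKM in Q215X/+ nerves, and 0.166 and 0.0249 FPKM in WT nerves. All 4 libraries with the transgene lay above all 4 without it, and the HA-NRG1 type III/+:Q215X/+ libraries were the highest. Mean FPKM of Ucn2 in HA-NRG1 type III/+:Q215X/+ nerves was 10.7 times that of Q215X/+ nerves and 32.5 times that of WT nerves, and in HA-NRG1 type III/+ nerves it was 18.7 times that of WT nerves. These ratios have denominators near 0, and within the endings 0 and 1 they were 18.2 and 7.68, 18.2 and 128, and 15.1 and 42.7 in the same order. Single libraries moved them by over 1.5 times. Without the WT library of ending 0 or that of ending 1, the ratio of HA-NRG1 type III/+:Q215X/+ to WT was 125 or 18.7, and that of HA-NRG1 type III/+ to WT was 71.8 or 10.7. With ending 0 of HA-NRG1 type III/+ left out, its ratio to WT was 11.1, and without the Q215X/+ library of ending 1, that of HA-NRG1 type III/+:Q215X/+ to Q215X/+ was 18.6. In limma, the log2 difference was 1.68 (SE 0.25, adjusted p = 0.152) in the first of these comparisons, 1.91 (SE 0.25, adjusted p = 0.0924) in the second and 1.30 (SE 0.25, adjusted p = 0.227) in the third. With the replicate block, limma called Ucn2 in HA-NRG1 type III/+:Q215X/+ against Q215X/+ (adjusted p = 0.0392) and against WT (adjusted p = 0.0248), and the adjusted p was 0.0583 in HA-NRG1 type III/+ against WT. Ucn2 passed the filter only through the groups in which it was high, and without the filter both block calls were lost (limma adjusted p = 0.0949 and 0.0779). In HA-NRG1 type III/+ against WT, limma with the block called Ucn2 at a pseudocount of 0.1 (adjusted p = 0.0404). With the block it was not called there without the filter (limma adjusted p = 0.132). Nor was it called with the block and a term for sex (limma adjusted p = 0.208, log2 difference 0.89). The block call against Q215X/+ was lost on leaving out any 1 of the WT, Q215X/+ or HA-NRG1 type III/+:Q215X/+ libraries or with a term for sex (limma adjusted p = 0.183). The call against WT was lost on leaving out any 1 WT or HA-NRG1 type III/+:Q215X/+ library.

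Ucn2 in Q215X/+ against WT had a log2 difference of 0.23 (SE 0.25, limma adjusted p = 1), which was −0.53 with a term for sex, a term that rests on the 1 male and the 1 female HA-NRG1 type III/+ library. Its transgene difference on the mutant background minus that on the WT background was 0.38 (SE 0.36), with an adjusted p of 1.00 for the interaction in limma, and it was −0.14 at a pseudocount of 0.1. The receptor Crhr2, which binds urocortin 2, was between 0.0659 and 0.183 FPKM in all libraries, Crhr1 was at most 0.00874 FPKM, and the related peptide genes Ucn and Ucn3 were at most 0.0400 FPKM and 0 FPKM.

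Shh, the ligand Sonic hedgehog, which is induced in injured Schwann cells, had 0.417 and 1.02 FPKM in HA-NRG1 type III/+:Q215X/+ nerves, 0.489 and 0.374 FPKM in HA-NRG1 type III/+ nerves, 0.112 and 0.350 FPKM in Q215X/+ nerves, and 0.134 and 0.142 FPKM in WT nerves. The library of ending 1 in HA-NRG1 type III/+:Q215X/+ was the highest, and the lowest library with the transgene was 0.374 FPKM against a highest of 0.350 FPKM without it. Mean FPKM of Shh in HA-NRG1 type III/+:Q215X/+ nerves was 3.10 times that of Q215X/+ nerves (limma adjusted p = 0.635, unadjusted 0.0409) and 5.20 times that of WT nerves (adjusted 0.490, unadjusted 0.0190). In HA-NRG1 type III/+ nerves it was 3.13 times that of WT nerves (limma adjusted p = 0.836). Without the HA-NRG1 type III/+:Q215X/+ library of ending 1, the first 2 ratios were 1.80 and 3.02.

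Gdnf, a survival factor for motor and sensory neurons, had 0.110 and 0.123 FPKM in HA-NRG1 type III/+:Q215X/+ nerves, 0.146 and 0.0712 FPKM in HA-NRG1 type III/+ nerves, 0.0211 and 0.0325 FPKM in Q215X/+ nerves, and 0.0413 and 0.0585 FPKM in WT nerves. The libraries with the transgene again did not overlap with those without it. Mean FPKM of Gdnf in HA-NRG1 type III/+:Q215X/+ nerves was 4.34 times that of Q215X/+ nerves (limma adjusted p = 0.423, unadjusted 0.0124) and 2.33 times that of WT nerves (adjusted 0.619, unadjusted 0.0404). In HA-NRG1 type III/+ nerves it was 2.18 times that of WT nerves (limma adjusted p = 0.705). At these levels neither gene reached the 1 FPKM of the filter on average, and FPKM carry no counts from which a floor of detection could be set.

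Bdnf, another neurotrophic ligand, had 0.0151 and 0.0118 FPKM in HA-NRG1 type III/+:Q215X/+ nerves, 0.0496 and 0.0371 FPKM in HA-NRG1 type III/+ nerves, 0.0733 and 0.0377 FPKM in Q215X/+ nerves, and 0.0411 and 0.0406 FPKM in WT nerves. Both HA-NRG1 type III/+:Q215X/+ libraries were below all the others, with a mean FPKM ratio of 0.243 to Q215X/+ (limma adjusted p = 0.574, unadjusted 0.0280). Artn, a relative of Gdnf, had 0.192 and 0.0459 FPKM in HA-NRG1 type III/+:Q215X/+ nerves, 0.0811 and 0.156 FPKM in HA-NRG1 type III/+ nerves, 0.128 and 0.183 FPKM in Q215X/+ nerves, and 0.0983 and 0.0788 FPKM in WT nerves. Its highest and its lowest library were both HA-NRG1 type III/+:Q215X/+, so no direction could be read between the backgrounds with the transgene.

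Lif, a cytokine of the interleukin 6 family released after nerve injury, had 3.03 and 2.48 FPKM in HA-NRG1 type III/+:Q215X/+ nerves, 3.08 and 2.62 FPKM in HA-NRG1 type III/+ nerves, 2.44 and 2.18 FPKM in Q215X/+ nerves, and 3.17 and 2.68 FPKM in WT nerves. The Q215X/+ libraries were lowest within each ending. Lif had a log2 difference of −0.24 (SE 0.12, limma adjusted p = 1) in Q215X/+ against WT and 0.18 (SE 0.12, limma adjusted p = 1) in HA-NRG1 type III/+:Q215X/+ against Q215X/+.

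Cd24a had 58.1 and 63.2 FPKM in HA-NRG1 type III/+:Q215X/+ nerves, 40.6 and 46.4 FPKM in HA-NRG1 type III/+ nerves, 70.8 and 71.5 FPKM in Q215X/+ nerves, and 40.4 and 49.8 FPKM in WT nerves. The 4 libraries with the mutation lay above the 4 without it, and within them those of HA-NRG1 type III/+:Q215X/+ lay below those of Q215X/+. Mean FPKM of Cd24a in HA-NRG1 type III/+:Q215X/+ nerves was 1.34 times that of WT nerves and 0.852 times that of Q215X/+ nerves, and in Q215X/+ nerves it was 1.58 times that of WT nerves. In Q215X/+ against WT the log2 difference was 0.65 (SE 0.13) with an unadjusted p of 0.00171 and an adjusted p of 1 in limma, or 0.200 with the replicate block. Between HA-NRG1 type III/+:Q215X/+ and WT it was 0.43 (SE 0.13, limma adjusted p = 0.443), and with the block it was called (adjusted p = 0.0486). That call was lost on leaving out any 1 WT, HA-NRG1 type III/+ or HA-NRG1 type III/+:Q215X/+ library, or without the filter (limma adjusted p = 0.106). It was also lost with a term for sex (limma adjusted p = 0.101), which left the difference at 0.43 because the libraries of both genotypes are female. Between HA-NRG1 type III/+:Q215X/+ and Q215X/+ it was −0.23 (SE 0.13, limma adjusted p = 0.952), and in HA-NRG1 type III/+ against WT −0.05 (SE 0.13). Cd24a has processed copies in the mouse genome, with the counting of shared reads not given in the sources used here.

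Cd24 is also found on red blood cells and their precursors. The 7 red blood cell markers summed to 73.4 and 178 FPKM in HA-NRG1 type III/+:Q215X/+ nerves, 89.9 and 49.2 FPKM in HA-NRG1 type III/+ nerves, 601 and 1282 FPKM in Q215X/+ nerves, and 239 and 244 FPKM in WT nerves, and none was at 0 in all libraries. The sums were higher in both Q215X/+ libraries than in both WT libraries, and lower in both HA-NRG1 type III/+:Q215X/+ libraries than in both WT libraries. Their part in the Cd24a result was not tested. Sex and the mutation cannot be told apart in Q215X/+ against WT. All 4 libraries of HA-NRG1 type III/+:Q215X/+ and WT were female, with Cd24a at 58.1 and 63.2 FPKM in HA-NRG1 type III/+:Q215X/+ nerves and at 40.4 and 49.8 FPKM in WT nerves.

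**Figure D2:**
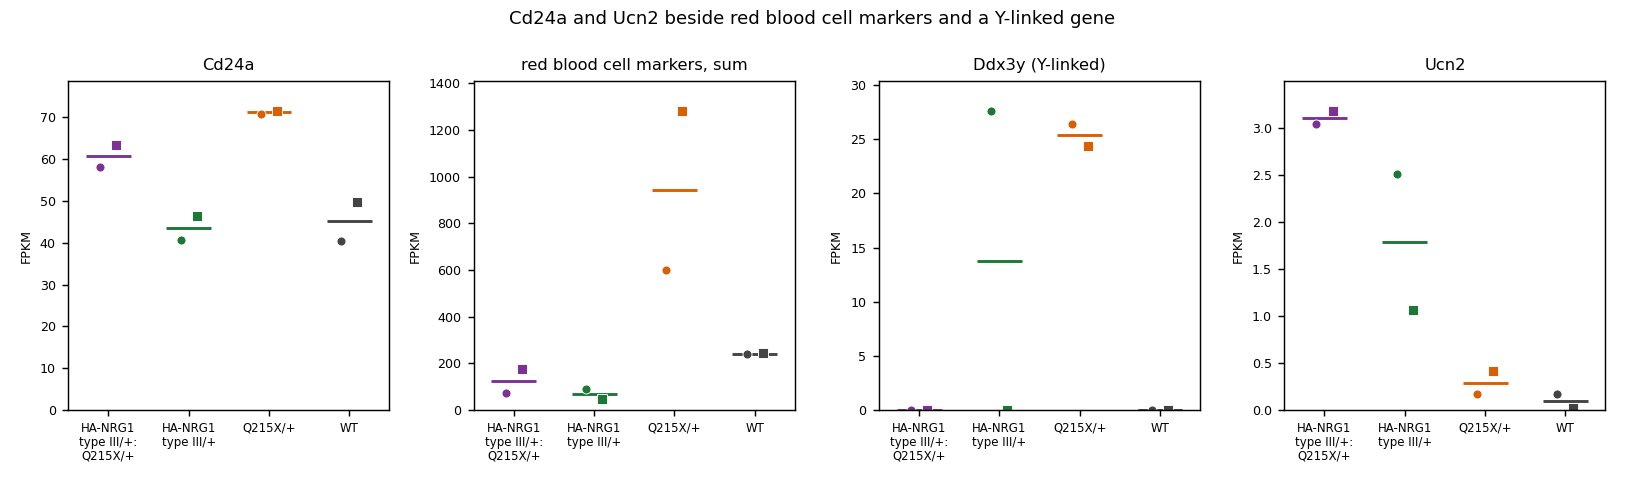
FPKM of Cd24a, of the sum of 7 red blood cell markers, of the Y-linked gene Ddx3y and of Ucn2 in the 8 libraries, with circles for ending 0, squares for ending 1 and a line at the mean of 2 libraries. The marker sum was 73.4 and 178 FPKM in HA-NRG1 type III/+:Q215X/+ nerves, where Cd24a stood at 58.1 and 63.2 FPKM, against 239 and 244 FPKM in WT nerves, where Cd24a stood at 40.4 and 49.8 FPKM.

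Counted over the comparisons, few of these genes were called. Of the 5 genes that passed the filter, limma called 0 in HA-NRG1 type III/+:Q215X/+ against Q215X/+, where it called 0.0399% of all genes tested, and 1 of the 5 was under 0.05 unadjusted (6.58% of all genes). With the block it called 1, Ucn2, against 1.72% of all genes. Set against WT, HA-NRG1 type III/+:Q215X/+ nerves had 0 of the 5 called by limma (0.112% of all genes), with 2 under 0.05 unadjusted (7.29%), and with the block it called 2, Ucn2 and Cd24a (2.39%). Without the filter these block calls of Ucn2 and Cd24a were lost, and Ucn2 passed the filter only through the groups in which it was high. Its counts are therefore not comparable with the shares of all genes. For HA-NRG1 type III/+ against WT limma called 0 of the 5 without the block (0.0638% of all genes, with 1 of the 5 and 6.9% of all genes under 0.05 unadjusted) and 0 with it (2.11%). In Q215X/+ against WT it called 0 in either fit (0.00798%), with 1 under 0.05 unadjusted (2.04%). None of the 5 genes below the filter was called in the fit without a filter, which called 0.0159%, 0.0636%, 0% and 0.0106% of genes in these 4 comparisons in the same order, and 3, 2, 0 and 0 of the 5 were under 0.05 unadjusted, against 7.38%, 7.57%, 7.45% and 3.32% of genes.

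Groups that did not overlap were more common, also among all genes. Sox2, Gdnf, Shh, Ucn2 and Lif were higher in both HA-NRG1 type III/+:Q215X/+ libraries than in both Q215X/+ libraries (5 of 10, against 15.4% of the 18870 genes above 0), and Bdnf and Cd24a were lower (2 of 10, against 14.2%). Against WT, Gdnf, Shh, Ucn2 and Cd24a were higher in HA-NRG1 type III/+:Q215X/+ nerves (4 of 10, against 15% of genes) and Bdnf lower (1 of 10, against 15.7%). Gdnf, Shh and Ucn2 were higher in HA-NRG1 type III/+ than in WT nerves (3 of 10, against 15.5%) and none lower (14.6%). In Q215X/+ against WT, Ucn2, Artn and Cd24a were higher (3 of 10, against 10.2%) and Sox2, Gdnf and Lif lower (3 of 10, against 11%). The gap was minimal for Ucn2, with a lowest Q215X/+ library of 0.1669 FPKM and a highest WT library of 0.1664 FPKM. It was also small for Sox2, with a highest Q215X/+ library of 4.21 FPKM and a lowest WT library of 4.22 FPKM. These comparisons share libraries, so their counts are not independent of each other. Because the 10 genes were chosen with earlier results known, the counts cannot show an excess over the shares.

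**Figure D3:**
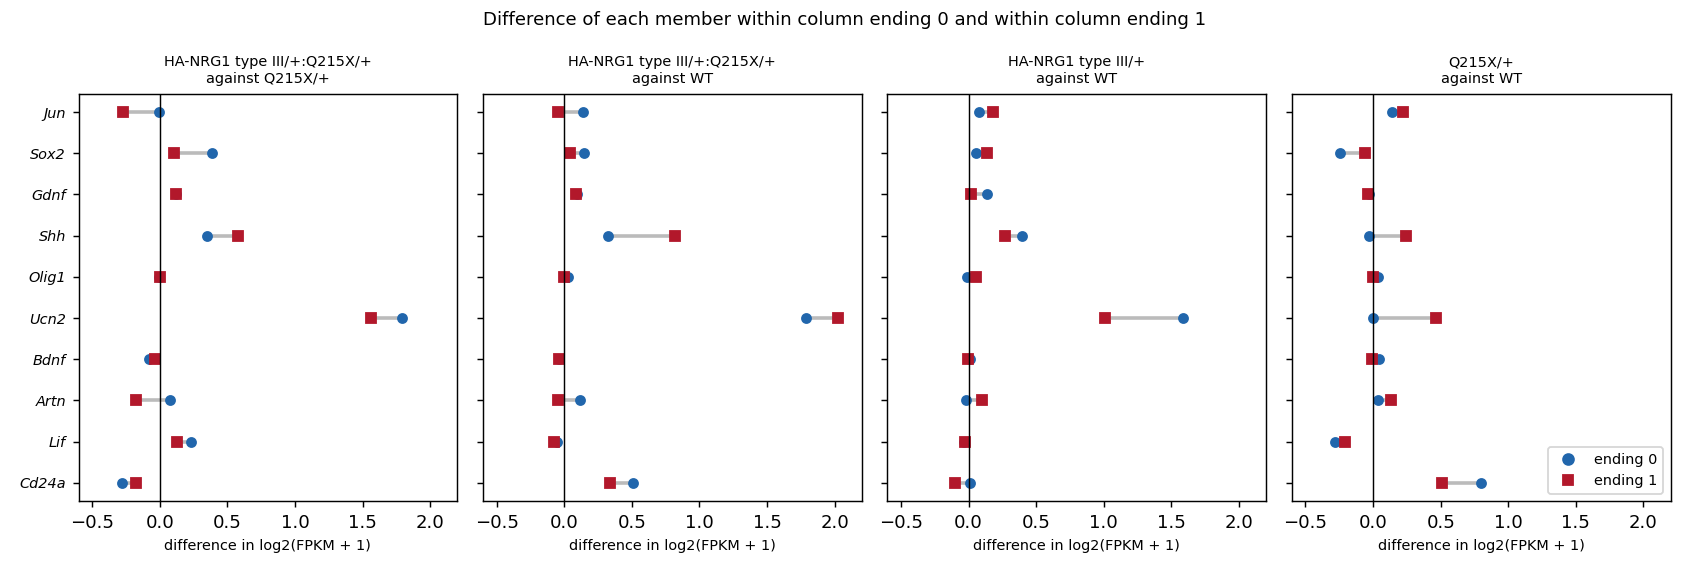
Difference of each gene in log2(FPKM + 1) (horizontal axes) in 4 comparisons, taken within the libraries of ending 0 (circles) and within those of ending 1 (squares), with a grey line joining them. Ucn2 was at 1.79 and 1.56 in HA-NRG1 type III/+:Q215X/+ against Q215X/+, and Jun was at −0.01 and −0.27.

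Within the endings, Ucn2 had log2 differences of 1.79 (ending 0) and 1.56 (ending 1) in HA-NRG1 type III/+:Q215X/+ against Q215X/+, and of 1.59 and 1.01 in HA-NRG1 type III/+ against WT. Shh had 0.35 and 0.58 in the first of these comparisons and 0.39 and 0.27 in the second. Both genes thus kept a positive difference in each ending on each background. Cd24a had 0.79 and 0.51 in Q215X/+ against WT, and 0.51 and 0.34 in HA-NRG1 type III/+:Q215X/+ against WT. Jun and Artn changed in size or sign between the endings in HA-NRG1 type III/+:Q215X/+ against Q215X/+, with −0.01 and −0.27 for Jun and 0.08 and −0.18 for Artn.

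Each allele was then compared over both backgrounds, 4 libraries with it against 4 without, a comparison chosen after the values had been seen. With the transgene, Ucn2 averaged 2.45 ± 0.967 FPKM (SD, n = 4), against 0.193 ± 0.162 FPKM without it (SD, n = 4), a ratio of 12.7. The log2 difference was 1.49 (SE 0.18), with an adjusted p of 0.0317 in limma and of 0.00805 with the replicate block. It was the only one of the 5 tested genes called, where limma called 0.535% of all genes as higher and 0.455% as lower, and 3.42% and 3.69% with the block. The libraries with and without the transgene differed in their mix of sexes. With a term for sex and no block, limma called 0.104% of all genes as higher and 0.0718% as lower. The value of Ucn2 in that fit is not given here. Ucn2 passed the filter only through the libraries with the transgene, and without the filter the adjusted p in limma was 0.0515, or 0.0308 with the block. With the filter and no block, the call held on leaving out either HA-NRG1 type III/+ library and was lost on leaving out any 1 of the other 6 libraries (adjusted p = 0.0802 to 0.142). With the block it was lost on leaving out either HA-NRG1 type III/+:Q215X/+ library (limma adjusted p = 0.0529 and 0.0611). Macrophage markers summed to 121 to 142 FPKM in the libraries with the transgene and 92.9 to 125 FPKM in those without it. Of these, 7 of 7 tested were above 0 in log2 difference, and 2 were called with the block (3.42% of all genes were called as higher). None was at 0 in all libraries. Fibroblast markers and cell cycle genes were also above 0 in 7 of 7 tested each, with 1 and 0 called with the block. Endothelial markers were above 0 in 5 of 6. Red blood cell markers summed to 49.2 to 178 FPKM with the transgene and 239 to 1282 FPKM without it. The part of these cell types in the Ucn2 result was not tested.

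Shh averaged 0.574 ± 0.299 FPKM with the transgene and 0.185 ± 0.111 FPKM without it (SD, n = 4 each, ratio 3.11), with an adjusted p of 0.307 in limma, or 0.147 with the block. Gdnf averaged 0.112 ± 0.0314 FPKM with the transgene and 0.0384 ± 0.0158 FPKM without it (SD, n = 4 each, ratio 2.93), with an adjusted p of 0.183 in limma, or 0.126 with the block. Ucn2, Shh and Gdnf were the 3 of 10 genes that were higher in every library with the transgene, as were 4.4% of the 18870 genes above 0. None of the 10 was lower in every such library (4.1%). Both the genes and this comparison were chosen with results of these data known, so the count cannot show an excess. Sox2 had a log2 difference of 0.17 (SE 0.10, limma adjusted p = 0.673) and Jun of −0.01 (SE 0.12, limma adjusted p = 1.00).

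With the mutation, Cd24a averaged 65.9 ± 6.42 FPKM, against 44.3 ± 4.60 FPKM without it (SD, n = 4 each), a ratio of 1.49. The log2 difference was 0.56 (SE 0.09), with an unadjusted p of 0.000581 and an adjusted p of 0.521 in limma, or 0.0876 with the block. Limma called 0.00798% of all genes as higher in this comparison and 0% as lower, or 0.016% and 0% with the block, and none of the 5 tested genes was among them. The libraries with and without the mutation also differed in their mix of sexes, and the value of Cd24a with a term for sex is not given here. Cd24a was the 1 gene of 10 that did not overlap and was higher with the mutation, against 0.556% of genes. None was lower in every such library (0.784%). As for the transgene, genes and comparison were chosen with results known, so this count cannot show an excess. Lif averaged 2.53 ± 0.355 FPKM with the mutation and 2.89 ± 0.281 FPKM without it (SD, n = 4 each), and the libraries overlapped.

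**Figure D4:**
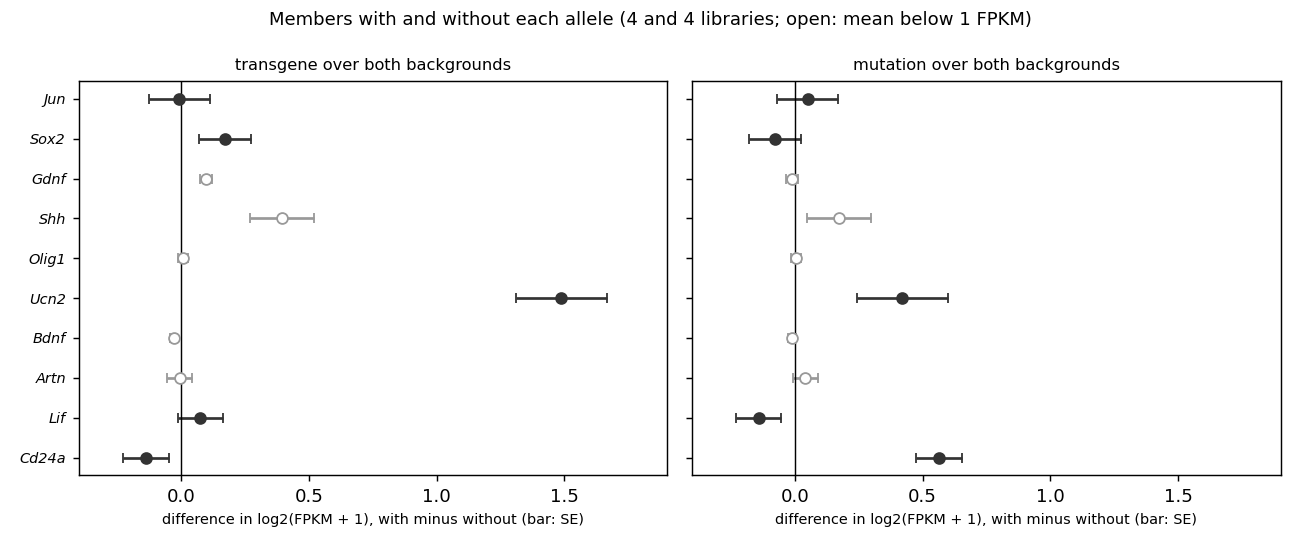
Log2 difference of each gene with minus without the transgene (left) and the mutation (right), over 4 and 4 libraries, with bars for the standard error and open circles for genes with a mean below 1 FPKM. Ucn2 lies at 1.49 for the transgene and Cd24a at 0.56 for the mutation.

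The receptors of Gdnf, Lif and Bdnf given here were above their ligands in FPKM in every library. Crhr2 was below Ucn2 in every library except the WT library of ending 1 (0.103 against 0.0249 FPKM). Gfra1, the receptor of Gdnf, was between 44.2 and 52.7 FPKM, the signalling receptor Ret between 4.97 and 12.99 FPKM, the Lif receptor subunits Lifr and Il6st at 11.3 to 15.0 and 63.1 to 90.8 FPKM, and the Bdnf receptor Ntrk2 at 15.3 to 19.5 FPKM. Of 9 tested receptor genes, 1 rose and 2 fell with the transgene over both backgrounds when the block was used (3.42% and 3.69% of all genes), none was called without it, and the median log2 difference was 0.01. The riser was Ngfr, the p75 receptor of neurotrophins and a marker of immature and repair Schwann cells. It had 36.4 and 25.3 FPKM in HA-NRG1 type III/+:Q215X/+ nerves, 33.8 and 27.1 FPKM in HA-NRG1 type III/+ nerves, 23.1 and 16.1 FPKM in Q215X/+ nerves and 29.2 and 23.8 FPKM in WT nerves. Those that fell were Gfra3, the receptor of Artn, and Ntrk2, with log2 differences of −0.45 (SE 0.13) and −0.24 (SE 0.05). In limma the adjusted p of Ngfr was 0.442 without the block and 0.0106 with it, that of Gfra3 0.218 and 0.0470, and that of Ntrk2 0.125 and 0.0236.

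In the Hedgehog pathway, none of 13 tested genes was called for the transgene over both backgrounds, with or without the block. Among all genes, limma called 0.535% as higher and 0.455% as lower there, or 3.42% and 3.69% with the block. None of the 13 was called in any of the 4 comparisons, where at most 2.39% of all genes were called. For a list of 13, no call is near these shares. Dhh, the hedgehog ligand that Schwann cells normally make, stood at 194 and 186 FPKM in HA-NRG1 type III/+:Q215X/+ nerves, 211 and 188 FPKM in HA-NRG1 type III/+ nerves, 175 and 194 FPKM in Q215X/+ nerves and 172 and 162 FPKM in WT nerves. Its level per length was more than that of Shh in every library. The pathway targets Ptch1 and Gli1 were between 29.7 and 43.8 FPKM and between 14.9 and 20.9 FPKM. Gli2, a transcription factor of the pathway, was at 1.98 and 1.61 FPKM in HA-NRG1 type III/+:Q215X/+ nerves, 1.66 and 1.24 FPKM in HA-NRG1 type III/+ nerves, 2.50 and 2.23 FPKM in Q215X/+ nerves and 1.85 and 1.82 FPKM in WT nerves.

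None of 7 tested AP-1 partners of Jun was called for the transgene over both backgrounds in either fit. For a list of 7 this is near the shares of all genes. These were 0.535% higher and 0.455% lower without the block, and 3.42% and 3.69% with it. Atf3, an injury-induced factor, was at 7.42 and 8.38 FPKM in HA-NRG1 type III/+:Q215X/+ nerves, 5.95 and 10.3 FPKM in HA-NRG1 type III/+ nerves, 8.07 and 10.6 FPKM in Q215X/+ nerves and 9.02 and 15.4 FPKM in WT nerves. Junb, a relative of Jun, was between 5.22 and 9.76 FPKM. Of 9 tested genes of the Jun kinase pathway, 2 scaffold genes fell with the transgene when the block was used (3.69% of all genes fell), and 1 of them, Mapk8ip2, without it. Mapk8ip2 had 0.876 and 1.12 FPKM in HA-NRG1 type III/+:Q215X/+ nerves, 0.773 and 0.861 FPKM in HA-NRG1 type III/+ nerves, 2.11 and 2.45 FPKM in Q215X/+ nerves and 1.69 and 2.39 FPKM in WT nerves. Its libraries did not overlap, the log2 difference was −0.73 (SE 0.10), and limma gave an adjusted p of 0.0433, or 0.00580 with the block. Mapk8ip3 was between 29.1 and 30.3 FPKM in the libraries with the transgene and between 34.4 and 37.7 FPKM in those without it.

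Of 12 other injury and repair genes that were tested, 4 rose and 1 fell with the transgene over both backgrounds in limma with the block, against 3.42% and 3.69% of all genes, and the median log2 difference of the 12 was 0.0005. Without the block Timp1 alone was called. Timp1, an inhibitor of matrix metalloproteases, had 9.46 and 10.7 FPKM in HA-NRG1 type III/+:Q215X/+ nerves, 8.61 and 7.62 FPKM in HA-NRG1 type III/+ nerves, 4.34 and 3.94 FPKM in Q215X/+ nerves and 3.99 and 6.01 FPKM in WT nerves. Its log2 difference was 0.86 (SE 0.12), with a limma adjusted p of 0.0407 without the block and 0.0106 with it. Tnc, the matrix protein tenascin C, had 4.86 and 3.48 FPKM in HA-NRG1 type III/+:Q215X/+ nerves, 4.12 and 2.94 FPKM in HA-NRG1 type III/+ nerves, 2.86 and 1.49 FPKM in Q215X/+ nerves and 2.48 and 1.36 FPKM in WT nerves. It was higher with the transgene within each ending. The other genes that rose were Igfbp2, a binding protein of insulin-like growth factors, and Ccl2, a chemokine for monocytes, and the 1 that fell was Stmn2, a tubulin regulator of neurons. Of 7 tested sensory neuron markers, 1 rose (Uchl1) and 4 fell (Nefl, Nefm, Nefh and Prph) with the transgene in the same fit. The 8 on the list summed to 57.1 to 76.3 FPKM with the transgene and 57.6 to 82.7 FPKM without it. Most of each sum was Uchl1 (36.5 to 60.4 FPKM), so the sums do not show the falls. Nefh was between 1.54 and 2.95 FPKM with the transgene and between 4.33 and 6.39 FPKM without it. Of 5 tested red blood cell markers, 4 fell. The part of these cells in the injury and repair counts was not tested.

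Among 13 tested genes of immature Schwann cells, Ngfr rose and Ncam1, Gap43, Cdh2 and Pou3f1 fell with the transgene in limma with the block (3.42% of all genes rose and 3.69% fell), none of the 13 was called without it, and the median log2 difference was −0.03. Cdh2 encodes N-cadherin, and Gap43 a growth cone protein. Both mark Schwann cells before myelination, with log2 differences of −0.43 (SE 0.09) and −0.40 (SE 0.10). Of 5 tested relatives of Sox2 and Olig1, 1 fell, Sox10, the lineage factor of Schwann cells, at 163 and 151 FPKM in HA-NRG1 type III/+:Q215X/+ nerves, 158 and 151 FPKM in HA-NRG1 type III/+ nerves, 191 and 158 FPKM in Q215X/+ nerves and 207 and 197 FPKM in WT nerves. None of the 5 was called without the block. Sox5 was between 0.796 and 1.27 FPKM.

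The myelin genes, the counterpart of the repair state, had 1 rise and 5 falls among 18 tested for the transgene with the block (3.42% and 3.69% of all genes), 1 rise (Pmp2) and 1 fall (Cnp) without it, and a median log2 difference of −0.15. Pou3f1 is on this list and on that of immature Schwann cell genes, so its fall is counted in both. Pmp2, a fatty acid binding protein of myelin, had 2210.2 and 2136 FPKM in HA-NRG1 type III/+:Q215X/+ nerves, 2869.8 and 2116 FPKM in HA-NRG1 type III/+ nerves, 1365 and 1476 FPKM in Q215X/+ nerves and 1062 and 957 FPKM in WT nerves. Cnp, an enzyme of noncompact myelin, had 454 and 503 FPKM in HA-NRG1 type III/+:Q215X/+ nerves, 453 and 522 FPKM in HA-NRG1 type III/+ nerves, 819.6 and 897 FPKM in Q215X/+ nerves and 844 and 963 FPKM in WT nerves. Neither gene overlapped between libraries with and without the transgene. Among Schwann cell identity genes, S100b was at 652 and 913 FPKM in HA-NRG1 type III/+:Q215X/+ nerves, against 429 and 646 FPKM in Q215X/+ nerves, and Egfl8 at 359 and 374 FPKM in HA-NRG1 type III/+:Q215X/+ nerves, against 248 and 283 FPKM in Q215X/+ nerves.

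**Figure D5:**
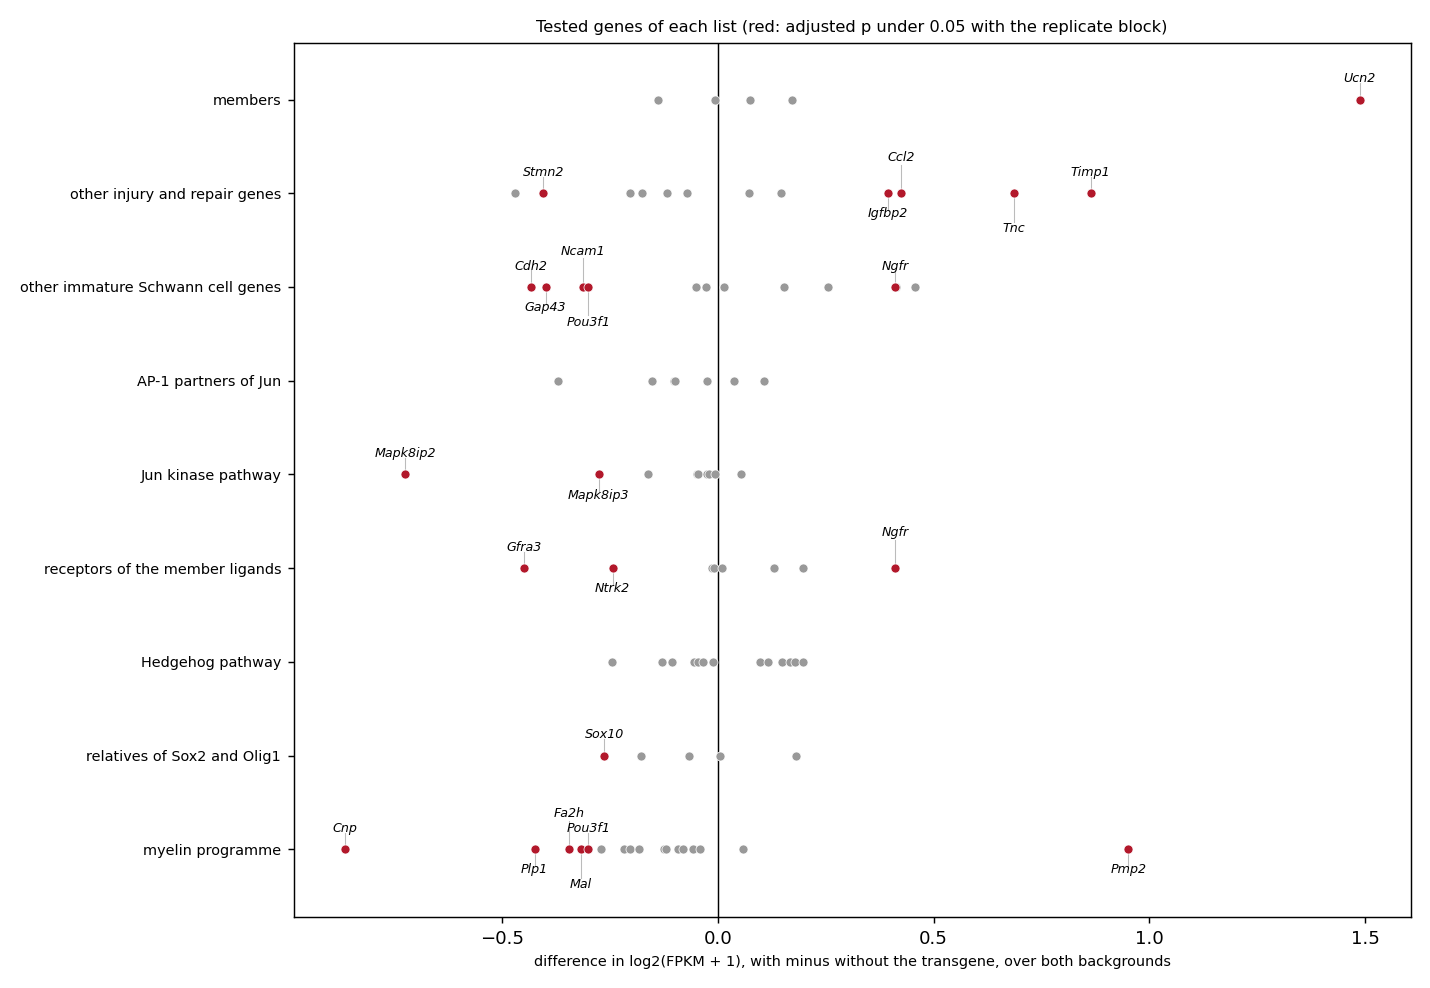
Log2 difference with minus without the transgene over both backgrounds for each tested gene of 9 lists, 1 list per row, with red points for genes called by limma with the replicate block and grey points for the others. Ucn2 lies farthest to the right at 1.49. The AP-1 and Hedgehog lists hold no called gene, where 3.42% of all tested genes were called as higher and 3.69% as lower.

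The genes whose log2(FPKM + 1) was most like that of each gene over the 8 libraries were found by Pearson's r among 11921 genes, as a description only, since all share libraries and genotypes. For Ucn2 they included Cdh6 (0.976), which encodes a cadherin, and Cxcl14 (0.973), which encodes a chemokine. Cdh6 had 5.68 and 4.96 FPKM in HA-NRG1 type III/+:Q215X/+ nerves, 5.17 and 3.76 FPKM in HA-NRG1 type III/+ nerves, 2.73 and 3.49 FPKM in Q215X/+ nerves and 2.70 and 2.36 FPKM in WT nerves. The libraries with the transgene did not overlap with those without it. For Cd24a they were Nudt12 (0.974), Car2 (0.938) and Dhdds (0.938), of which Car2 encodes a carbonic anhydrase abundant in red blood cells. Car2 had 1.28 and 1.33 FPKM in HA-NRG1 type III/+:Q215X/+ nerves, 0.737 and 1.03 FPKM in HA-NRG1 type III/+ nerves, 1.80 and 2.45 FPKM in Q215X/+ nerves and 0.658 and 0.923 FPKM in WT nerves. For Jun they were Pds5a (0.981), Ehd1 (0.972) and Abcf2 (0.964), and for Sox2 Ruvbl1 (0.964), Gpd2 (0.958) and Cd97 (0.950).

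The positions of the genes on GRCm38, the build that the submitters' processing notes name as mm10, were taken from the GENCODE M21 annotation, and all 10 are protein coding. Ucn2 lies at chr9:108986010-108987164 on the plus strand and spans 1155 bases. Cd24a lies at chr10:43578284-43584265 on the plus strand, Jun at chr4:95049034-95052222 on the minus strand and Sox2 at chr3:34650405-34652461 on the plus strand. Shh lies at chr5:28456815-28467256 on the minus strand and overlaps the antisense gene 9530036O11Rik, which was between 0 and 0.0989 FPKM in these libraries. Gdnf lies at chr15:7810846-7837575 on the plus strand. Without the strand setting of the counting, reads of a gene and of its antisense partner cannot be told apart.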

How the data were processed

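Sciatic nerve RNA of 4 genotypes was sequenced in 8 libraries, 2 per genotype. The deposited table, made by the authors, holds 1 FPKM value per gene and library. TopHat2 2.0.9, Cufflinks 2.2.0 and the build mm10 are named in the submitters' processing notes, with strand handling, annotation and filters not given in the sources used here. FPKM carry no counts, so depth is unknown and counting intervals cannot be given.

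Columns were joined to genotypes by name stems. The stem hani was read as HA-NRG1 type III/+, the 1 genotype not named by another stem, and no label ties the endings 0 and 1 to replicate numbers. The endings were treated as pairs because the correlation of their differences over 12530 genes was 0.118 to 0.304 in all 6 pairs of genotypes, a property of the data and not of a label.

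Values were tested as log2(FPKM + 1) with limma 3.58.1 in R 4.3.3, with 4 group means, an eBayes trend and 4 residual degrees of freedom (3 with the ending as a block), over genes whose mean reached 1 FPKM, and p-values were adjusted by Benjamini-Hochberg over all of them. Genes below that filter came from the fit without one. An exact permutation test of 2 against 2 libraries cannot go below p = 0.333 and was not used. The 10 genes and the gene lists were chosen with earlier results of these data known. All 10 genes were named, with up to 4 called genes per list, or the 2 with the smallest p where none was called, except that some genes under this rule are not reported here. Ccl2, Ncam1, Gap43, Cdh2, Pou3f1, Gfra3, Ntrk2, Nrg1, Olig2 and the receptors and ligands given as levels were chosen after their values were seen. Alternatives were a pseudocount of 0.1, no filter, median-ratio scaling, the block, a term for sex read from Xist and Ddx3y (with and without the block), and leaving out each library. The comparisons over both backgrounds, the ratios of mean FPKM without each library and the block combined with other alternatives were added after seeing the data.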

Additional observations from a re-analysis of the deposited data

Results flagged for a closer look

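The transgene difference of Jun was negative in both endings on the mutant background (−0.01 and −0.27 in log2) and positive in both endings on the WT background (0.07 and 0.18). The difference between the backgrounds was −0.265, with an adjusted p of 1.00 for the interaction in limma, or 0.965 with the replicate block. The transgene difference of Lif was positive in both endings on the mutant background (0.23 and 0.13) and negative in both on the WT background (−0.03 and −0.02). The difference between the backgrounds was 0.2078, with an adjusted p of 1.00 in limma, or 0.965 with the block. In both genes at least 1 of the 4 differences was close to 0.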

How the results depend on the processing

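In limma, the counts of called genes moved by over 1.5 times as follows. Without the filter they were 2 in Q215X/+ against WT, 0 in HA-NRG1 type III/+ against WT and 3 in HA-NRG1 type III/+:Q215X/+ against Q215X/+, where 1, 8 and 5 were called with it. With the replicate block, HA-NRG1 type III/+ against WT had 265 calls, HA-NRG1 type III/+:Q215X/+ against Q215X/+ 216 and HA-NRG1 type III/+:Q215X/+ against WT 299, where 14 were called in the last without it. With a term for sex, the calls were 8 in Q215X/+ against WT, 9 in HA-NRG1 type III/+:Q215X/+ against Q215X/+ and 9 in the interaction (1 without it), and with sex and the block 9, 11 and 9 and, in HA-NRG1 type III/+:Q215X/+ against WT, 98. Leaving out 1 library gave 1 to 16 calls in Q215X/+ against WT, 1 to 10 in HA-NRG1 type III/+ against WT, 2 to 18 in HA-NRG1 type III/+:Q215X/+ against Q215X/+, 5 to 17 in HA-NRG1 type III/+:Q215X/+ against WT and 3 to 11 in the interaction. A lone library left in a group was assumed to vary like the others. Of 544 alternative values of the 10 genes over 40 results, 508 kept their direction and side of the threshold, 7 passed it and 29 changed sign. The sign of Ucn2 in the interaction was turned by the pseudocount of 0.1 (−0.14). The term for sex turned Shh (−0.00938) and Ucn2 (−0.53) in Q215X/+ against WT, Bdnf (−0.00521) and Cd24a (0.047) in HA-NRG1 type III/+ against WT, and Jun (0.011) in HA-NRG1 type III/+:Q215X/+ against Q215X/+. Sex with the block gave −0.28 for Shh and −0.58 for Ucn2 in Q215X/+ against WT. Leaving out 1 library turned the sign of the log2 differences that follow, given from lowest to highest. For HA-NRG1 type III/+ against WT, Lif ran from −0.12 to 0.063, Jun from −0.00019 to 0.25, Sox2 from −0.022 to 0.22, Cd24a from −0.19 to 0.10, Bdnf from −0.0052 to 0.012 and Artn from −0.0099 to 0.087. For HA-NRG1 type III/+:Q215X/+ against WT, Lif ran from −0.17 to 0.040, Jun from −0.17 to 0.26, Sox2 from −0.076 to 0.26 and Artn from −0.058 to 0.13. For the interaction of transgene and mutation, Ucn2 ran from −0.0059 to 0.76 and Sox2 from −0.023 to 0.32. For Q215X/+ against WT, Bdnf ran from −0.0044 to 0.044 and Shh from −0.033 to 0.25. For HA-NRG1 type III/+:Q215X/+ against Q215X/+, Jun ran from −0.36 to 0.081 and Artn from −0.14 to 0.045. The block changed the calls given in the report for Ucn2 and Cd24a and no other call of the 10 genes. The cause was not tested. Depth could not be read from FPKM, so it sets an unknown limit on the 5 genes below 1 FPKM.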
